A study of Mus musculus with 7 samples.

Results

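The Dlx genes encode homeodomain transcription factors, and 8 genes of this family and its antisense strands are described here: Dlx1, Dlx2, Dlx3, Dlx4, Dlx5 and Dlx6, which code for proteins, and the noncoding transcripts Dlx1as and Dlx6os1. They were chosen by symbol from the 27179 genes of one table of read counts, and all 8 were found there. The counts come from chromatin immunoprecipitation and sequencing (ChIP-seq) of the 1st and 2nd pharyngeal arches, the paired swellings that form the jaws and the middle ear, dissected from C57BL/6 mice at E10.5. In 3 libraries (V5 1 to V5 3) the arches were homozygous for an allele of Moz, also called Kat6a, with a Flag-V5-BIO tag at its C-terminus, and an anti-V5 antibody was used. In 3 further libraries (WT 1 to WT 3) the same antibody was used on wild-type arches, which have no V5 epitope and serve as the negative control. A single input library holds chromatin of tagged arches that was not precipitated. Mice homozygous for the tagged allele are viable and fertile according to the design text. The labels do not say whether the replicates came from separate embryos or pools, so p-values here rest on a spread among libraries that could be technical alone.

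In the arches, Dlx genes are switched on in a nested order in neural crest derived mesenchyme. Dlx1 and Dlx2 are active along the whole arch, Dlx5 and Dlx6 in its lower part, and Dlx3 and Dlx4 towards its tip, and mice without Dlx5 and Dlx6 form upper-jaw structures in place of the lower jaw. In the genome the 6 genes lie as 3 neighbouring pairs, with regulatory elements between the partners. Dlx6os1, also known as Evf2, is transcribed through the Dlx5 and Dlx6 locus and is known from mouse forebrain as a regulator of both genes, and Dlx1as runs antisense to Dlx1. MOZ is a histone acetyltransferase, and the comparison of V5 with WT libraries asks where its tagged form is found in the genome. Reads of a ChIP library over a gene measure chromatin recovered there, not the expression of that gene.

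The 6 coding genes are short, and several of them overlap noncoding genes of the same locus. Dlx1 (GeneID 13390) spans 71528113 to 71533981 on chromosome 2 in RefSeq GRCm38.p6, the assembly behind the build mm10 that the submitters named. Dlx1as (GeneID 111970, 71530638 to 71537891) covers 3344 bp of it, or 57.0% of Dlx1. Dlx2 (GeneID 13392, 71543408 to 71546754) lies 5516 bp beyond Dlx1as and overlaps no counted gene. On chromosome 11, Dlx3 (GeneID 13393, 95120117 to 95125296) is free of overlaps, while the long noncoding gene Dlx4os covers 21.2% of Dlx4 (GeneID 13394, 95140447 to 95146294), 15150 bp further on. On chromosome 6, Dlx6 (GeneID 13396, 6863334 to 6867970) lies wholly inside Dlx6os1 (GeneID 320038, 6820543 to 6871627), and Dlx5 (GeneID 13395, 6877801 to 6882068) lies 6173 bp beyond it, free of overlaps. Dlx6os1 keeps 46448 bp outside Dlx6, more than any coding member has in all. The length deposited with the counts equals or nearly equals the whole span, introns included, for Dlx2, Dlx3, Dlx5, Dlx6 and Dlx1as. For Dlx1 it is 4536 bp beside a span of 5869 bp, and 4537 bp separate the end of the gene from the later start at 71529445 in the RefSeq promoter table. From that start, 1193 bp of Dlx1 lie outside Dlx1as. The deposited length is also shorter than the span for Dlx4, at 5355 beside 5848 bp, and for Dlx6os1, at 48988 beside 51085 bp. Free lengths, distances and values per kb use the RefSeq spans unless stated, so for these genes they may take in uncounted bases.

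**Figure D1:**
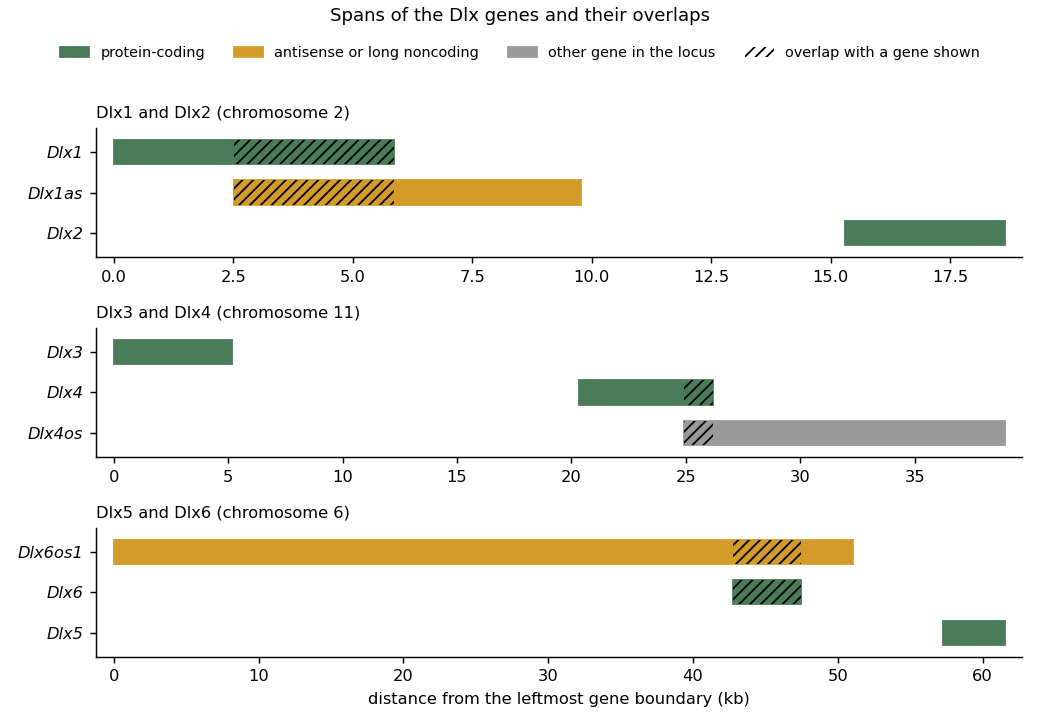
Spans of the Dlx genes by distance from the leftmost gene boundary in kb, with 1 panel for each genomic pair; green boxes are coding genes, yellow boxes the antisense and noncoding members, the grey box Dlx4os, and hatching marks stretches shared by 2 of the genes drawn. Dlx6 is hatched over its whole length, Dlx1 over 57.0% and Dlx4 over 21.2%, whereas Dlx2, Dlx3 and Dlx5 carry no hatching.

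RefSeq promoter windows (GRCm38.p6, 250 bases before to 50 after a start) were at hand for 3 of the 8 members, Dlx1, Dlx2 and Dlx6os1. They are shown to compare the starts of a CG-rich coding pair with that of the antisense transcript. The Dlx2 span takes in the last 50 bases of its window and none of the 250 before them, while the Dlx1 window lies inside the RefSeq span of Dlx1. The deposited length of Dlx1 fits the later start at 71529445, so the 250 bases before that start may not have been counted. In the windows of Dlx1 (chr2:71529195-71529494, plus strand) and Dlx2 (chr2:71546705-71547004, minus strand) the capitals mark CG dinucleotides. In the window of the more upstream Dlx6os1 start (chr6:6869484-6869783, minus strand), the capitals mark TAATTA, a sequence typical of homeodomain binding that reads the same on both strands. This window lies inside the RefSeq span of Dlx6os1, but the deposited length is shorter than that span, so the whole window may not have been counted.
Dlx1: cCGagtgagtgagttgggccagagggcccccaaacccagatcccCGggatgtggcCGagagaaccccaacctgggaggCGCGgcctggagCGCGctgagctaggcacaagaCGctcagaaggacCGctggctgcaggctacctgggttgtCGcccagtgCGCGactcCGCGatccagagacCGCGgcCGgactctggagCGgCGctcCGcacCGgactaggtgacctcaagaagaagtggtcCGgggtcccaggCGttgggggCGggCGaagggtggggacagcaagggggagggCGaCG
Dlx2: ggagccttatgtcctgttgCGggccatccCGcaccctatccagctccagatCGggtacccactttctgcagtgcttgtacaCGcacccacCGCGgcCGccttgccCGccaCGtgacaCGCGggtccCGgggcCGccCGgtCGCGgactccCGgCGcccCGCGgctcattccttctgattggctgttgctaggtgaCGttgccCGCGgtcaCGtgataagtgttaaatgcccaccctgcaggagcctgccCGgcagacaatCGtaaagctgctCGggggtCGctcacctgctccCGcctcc
Dlx6os1: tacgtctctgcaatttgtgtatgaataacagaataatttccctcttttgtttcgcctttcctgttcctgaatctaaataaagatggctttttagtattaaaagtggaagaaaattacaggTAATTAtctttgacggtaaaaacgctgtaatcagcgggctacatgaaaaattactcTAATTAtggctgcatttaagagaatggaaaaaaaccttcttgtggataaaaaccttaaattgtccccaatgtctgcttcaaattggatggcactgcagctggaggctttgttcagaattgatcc
The Dlx1 window holds 27 CG and the Dlx2 window 29, and 15.5% and 12.9% of the 32851 mouse windows hold at least as many. The median window holds 7. The Dlx6os1 window holds 5 CG, has a GC content of 35.7%, beside a median of 52.7% over all windows, and holds TAATTA in 2 places. Of all windows, 0.490% hold TAATTA in 2 or more places, a share not matched for GC content. The other Dlx6os1 window (chr6:6861634-6861933) holds TAATTA once. TAATTA stands at least once in 5.29% of all windows, and not in those of Dlx1 and Dlx2.

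The libraries were shallow over these genes, and over all genes the input and 2 of the ChIP libraries stood apart. Totals ran from 806648 counts in V5 1 to 3286602 in V5 3, from 1288732 to 2504595 in the WT libraries, and 3488745 counts were in the input. Compared over all genes by the chi-square per degree of freedom of their counts, V5 3 differed less from the WT libraries (4.03 to 5.45) than from V5 1 and V5 2 (9.45 and 9.62), and V5 1 and V5 2 differed from each other by 10.2. The input differed from the ChIP libraries by 11.0 to 15.0, more than any pair of ChIP libraries did. A gene with 0 counts may, by the usual limit of 3 counts, have up to 3.72 CPM (counts scaled to a library total of 1e+06) in V5 1 and 0.913 CPM in V5 3. Over Dlx1 to Dlx6 together there were 41, 43 and 50 counts in V5 1 to V5 3, 15, 24 and 34 in WT 1 to WT 3, and 69 in the input. Of the 8 members 1, Dlx6os1, passed the filter on low counts of the test across all genes, which was edgeR's quasi-likelihood test, and 6 had at least 10 counts over the 6 ChIP libraries. In that test 0 of 14575 genes (0%) passed an adjusted p of 0.05, 600 had an unadjusted p under 0.05, and DESeq2 also called 0. With no filter on low counts, 9 of 24447 genes (0.0368%) passed, and the 7 members that could be fitted were not among them. At an unadjusted p under 0.05 that fit held 5.50% of all genes and 0 of the 7 members, and DESeq2 also held 0 of 7 members there.

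Dlx2 carried more counts in V5 1 and V5 2 than in the other ChIP libraries for their depth. Dlx2, which acts with Dlx1 along the whole arch, had 10, 18 and 11 counts or 12.4, 15.8 and 3.35 CPM in V5 1 to V5 3, against 1, 5 and 13 counts or 0.776, 3.77 and 5.19 CPM in WT 1 to WT 3, and 5.45 CPM in the input. V5 1 and V5 2 lay above all WT libraries and the input, and V5 3 lay above WT 1 and under WT 2, WT 3 and the input. The group means were 10.52 ± 6.44 CPM in V5 and 3.24 ± 2.25 CPM in WT (SD, n = 3 each). The log2 ratio was 1.70 (exact permutation test, two-sided, p = 0.3), and 3 libraries against 3 cannot give a p under 0.1. With no filter on low counts, edgeR gave Dlx2 a log2 fold change of 1.62 (SE 1.06, adjusted p = 0.932).

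Dlx1 was almost without reads in the ChIP libraries. It had 0, 0 and 2 counts in V5, 0, 3 and 3 counts in WT, and 11 counts in the input. In CPM that is 0.609 in V5 3, 2.26 and 1.20 in WT 2 and WT 3, and 3.15 in the input, above each ChIP library. The ratio of pooled counts, V5 over WT and scaled for depth, was 0.326 with an exact 95% interval of counting error from 0.0322 to 1.82, so no difference was detectable at this depth. The same pooled ratio and interval were 2.01 (1.13 to 3.68) for Dlx2, 3.92 (1.77 to 9.83) for Dlx3 and 2.05 (1.19 to 3.63) for Dlx5, and these intervals lie above 1. They were 0.578 (0.268 to 1.20) for Dlx1as, 0.876 (0.428 to 1.78) for Dlx4 and 1.10 (0.899 to 1.36) for Dlx6os1, where they include 1. Pooling takes the libraries of a group as one and leaves out the spread between them, and for Dlx2 and Dlx5 it gives less than the ratios of mean CPM, 3.24 and 3.47, which weight each library equally.

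The antisense transcript Dlx1as divided the reads of this locus the other way. It had 1, 1 and 11 counts (1.24, 0.878 and 3.35 CPM) in V5, 1, 13 and 8 counts (0.776, 9.79 and 3.19 CPM) in WT, and 2 counts (0.573 CPM) in the input. WT 2 was the highest library and the groups overlapped (log2 ratio -1.33, two-sided exact permutation p = 0.7). Of the reads in Dlx1 and Dlx1as together, Dlx1 held 2 of 15 or 13.3% in the V5 libraries (Wilson 95% interval 3.74% to 37.9%), 6 of 28 or 21.4% in the WT libraries (10.2% to 39.5%), and 11 of 13 or 84.6% in the input (57.8% to 95.7%). The intervals of both ChIP groups overlap each other and lie wholly below that of the input. The 3 libraries that each held 1 read of the pair had it in Dlx1as. Both ChIP groups are set against the same single input library, whose own spread is not known, and the intervals cover counting error only. Reads in the stretch shared by both genes appear in neither count if overlaps were left unassigned, so this split compares the free start of Dlx1 with the free 3910 bp of Dlx1as.

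Dlx3, which also acts in placenta, hair and teeth, was the member whose groups did not overlap. It had 2, 18 and 12 counts or 2.48, 15.8 and 3.65 CPM in V5 1 to V5 3, against 3, 1 and 4 counts or 2.33, 0.753 and 1.60 CPM in WT 1 to WT 3. The input had 4.59 CPM, more than all WT libraries and more than V5 1 and V5 3. The means were 7.31 ± 7.38 CPM in V5 and 1.56 ± 0.788 CPM in WT (SD, n = 3 each), a log2 ratio of 2.23. The two-sided exact permutation test gave 0.1, which 3 against 3 cannot undercut. The lowest V5 library had 2.48 CPM from 2 counts and the highest WT library 2.33 CPM from 3 counts, a gap within the counting intervals of these 2 libraries. The pooled counts were 32 in V5 and 8 in WT, with the interval of the ratio above 1 as given. With the counts of autosomal genes of 1 to 10 kb as the denominator the groups overlapped (log2 ratio 1.96, exact permutation p = 0.2), and without V5 2 the log2 ratio was 0.98. Among 22015 genes with at least 10 counts over the ChIP libraries, the V5 libraries lay wholly above the WT libraries in 4.37% and wholly below in 5.02%. Of the 6 members with that many counts 1 lay wholly above and 0 wholly below. With no filter, edgeR gave Dlx3 a log2 fold change of 2.17 (SE 1.29, adjusted p = 0.919).

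Dlx4, the partner of Dlx3, did not share its pattern. It had 2, 0 and 15 counts (2.48, 0 and 4.56 CPM) in V5 and 10, 5 and 4 counts (7.76, 3.77 and 1.60 CPM) in WT, with 2.87 CPM in the input. The highest and the lowest ChIP libraries were WT 1 and V5 2, and the groups overlapped (log2 ratio -0.90, two-sided exact permutation p = 0.5). In V5 2, which had 18 counts in Dlx3, none fell in Dlx4, and that count of 0 allows up to 2.64 CPM. Dlx4os, which shares the stretch from 95145053 to 95146294 with Dlx4, had 8, 15 and 25 counts in V5, 10, 6 and 18 in WT and 39 in the input (edgeR log2 fold change 0.66, SE 0.79, adjusted p = 0.984).

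Dlx5, a gene of the lower jaw and of bone, had its reads piled up in a single library. It had 27, 7 and 10 counts or 33.5, 6.15 and 3.04 CPM in V5 1 to V5 3, against 1, 10 and 10 counts or 0.776, 7.53 and 3.99 CPM in WT 1 to WT 3, with 3.73 CPM in the input. V5 1 lay above all other libraries, and its exact Poisson 95% interval of 22.1 to 48.7 CPM overlapped that of no other library. V5 2 and V5 3 lay within the WT range. The means of 14.2 ± 16.7 CPM in V5 and 4.10 ± 3.38 CPM in WT (SD, n = 3 each) gave a log2 ratio of 1.79 (two-sided exact permutation p = 0.5), which was 0.16 without V5 1 and 2.58 without WT 2. With no filter, edgeR gave 1.78 (SE 0.96, adjusted p = 0.897).

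Dlx6 had 0 counts in all 7 libraries. Its host Dlx6os1 had 114 counts in the input, or 2.45 counts per kb outside Dlx6, and a stretch as long as Dlx6 would hold 11.4 counts at that density. Of 221 genes of 3 to 6 kb that lie wholly under other counted genes, 71.5% were at 0 in each library, while this held for 1.59% of 2016 genes of that length that overlap none. The long noncoding gene Dlx6os2, which lies inside Dlx6, also had 0 counts throughout. If reads in overlaps were left unassigned, the counts of Dlx6 carry no measurement of chromatin at that gene. The counting options are not stated, and this was not tested.

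Dlx6os1 was the best counted member, and by far the longest. It had 33, 62 and 108 counts or 40.9, 54.5 and 32.9 CPM in V5 1 to V5 3, and 37, 39 and 104 counts or 28.7, 29.4 and 41.5 CPM in WT 1 to WT 3. The input had 32.7 CPM. V5 2 was the highest library, V5 1 lay just under WT 3 and V5 3 lay inside the WT range. The means were 42.7 ± 10.9 CPM in V5 and 33.2 ± 7.21 CPM in WT (SD, n = 3 each), and edgeR gave a log2 fold change of 0.38 (SE 0.42, adjusted p = 0.984). Its log2 ratio of mean CPM, 0.36, was 0.15 with the counts of autosomal genes of 1 to 10 kb as the denominator.

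**Figure D2:**
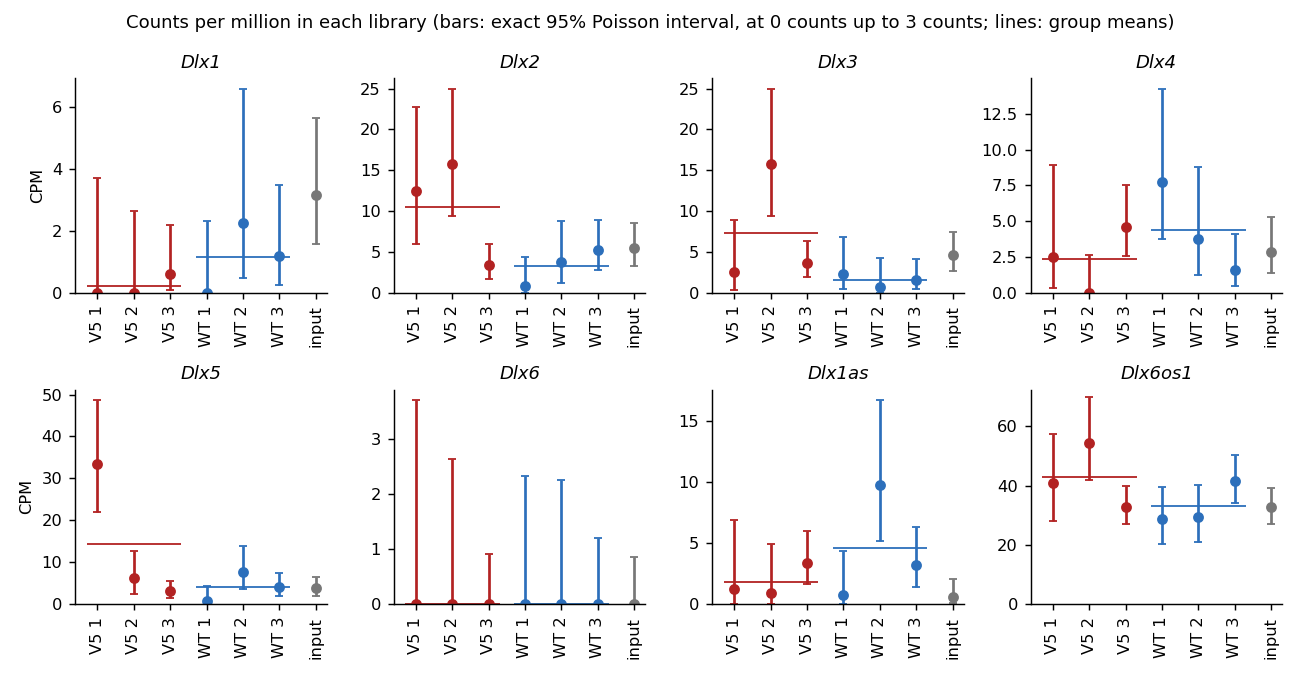
CPM of each member in the 3 V5, 3 WT and 1 input libraries, each panel with its own axis from 0; points are libraries, bars the exact 95% Poisson intervals of their counts (at 0 counts, up to 3 counts), and horizontal lines the group means. Dlx5 stands out in V5 1 at 33.5 CPM and Dlx3 in V5 2 at 15.8 CPM, while Dlx6 is at 0 in each library.

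The libraries of the V5 group did not share which Dlx gene held the reads. In V5 1, 65.9% of the 41 counts over Dlx1 to Dlx6 were in Dlx5 (Wilson 95% interval 50.5% to 78.4%). In V5 2, Dlx2 and Dlx3 held 41.9% each of 43 counts (28.4% to 56.7%). In V5 3, 30.0% of 50 counts were in Dlx4 (19.1% to 43.8%), with 20.0% to 24.0% in each of Dlx2, Dlx3 and Dlx5. In WT 1, 66.7% of only 15 counts were in Dlx4 (41.7% to 84.8%), while Dlx5 led in WT 2 with 41.7% of 24 counts and Dlx2 in WT 3 with 38.2% of 34. The input was the most even, from 14.5% in Dlx4 to 27.5% in Dlx2. Reads of these libraries carry no molecular identifiers as far as the sources used here state, so piled-up copies of single fragments cannot be told apart from separate fragments.

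**Figure D3:**
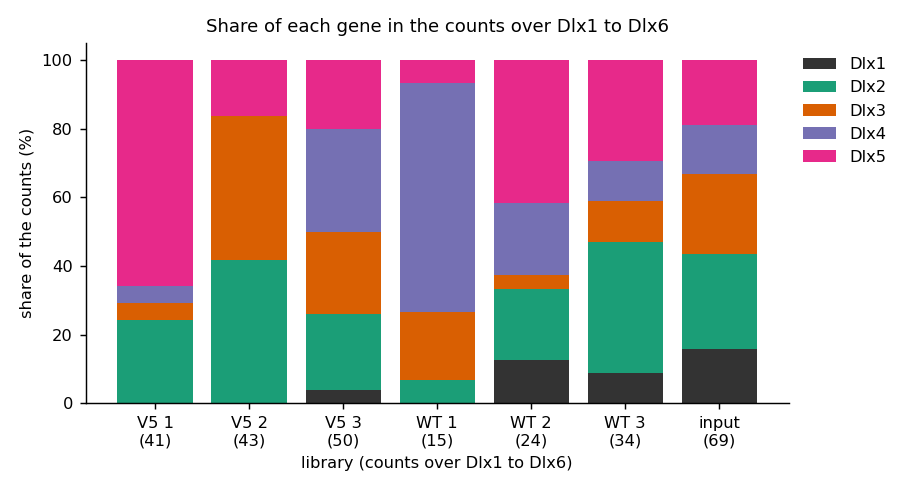
Share in percent of each coding gene in the counts over Dlx1 to Dlx6, by library, with the number of counts under each bar; Dlx6 has no segment because it had 0 counts. The leading segment differs between libraries, from Dlx5 in V5 1 at 65.9% to Dlx4 in WT 1 at 66.7%, and the input is spread over 5 genes.

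Summed over Dlx1 to Dlx6, the signal was 50.8, 37.8 and 15.2 CPM in V5 1 to V5 3, against 11.6, 18.1 and 13.6 CPM in WT 1 to WT 3, with 19.8 CPM in the input. V5 1 and V5 2 lay above the input and each WT library, and V5 3, whose library total exceeds those of V5 1 and V5 2 together, lay inside the WT range and under the input. The two-sided exact permutation test gave p = 0.2 for this sum, and the members were chosen with results of these data known. Its log2 ratio of 1.26 became 0.88 without V5 1 and 1.62 without V5 3, and 1.06 against the counts of autosomal genes of 1 to 10 kb. Set against the reads of Dlx6os1 in the same library, which needs no library total, the 6 genes held 1.24, 0.694 and 0.463 reads per Dlx6os1 read in V5, 0.405, 0.615 and 0.327 in WT, and 0.605 in the input. The order of the V5 libraries is the same on both scales, and V5 3 again lies in the WT range.

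By genomic pair, the Dlx5 and Dlx6 locus with Dlx6os1 had 74.4, 60.6 and 35.9 CPM in V5 and 29.5, 36.9 and 45.5 CPM in WT. The Dlx1 and Dlx2 locus with Dlx1as had 13.6, 16.7 and 7.30 CPM in V5 and 1.55, 15.8 and 9.58 CPM in WT. The Dlx3 and Dlx4 pair had 4.96, 15.8 and 8.22 CPM in V5 and 10.1, 4.52 and 3.19 CPM in WT. All 3 pairs overlapped between the groups. Their log2 ratios were 0.61, 0.48 and 0.70 (two-sided exact permutation p = 0.3, 0.6 and 0.5), and that of the Dlx1 and Dlx2 locus was -0.02 without WT 1. The log2 ratio was positive for 4 members, Dlx2, Dlx3, Dlx5 and Dlx6os1, and negative for 3, Dlx1, Dlx4 and Dlx1as. Among all genes with at least 10 ChIP counts 49.1% had a larger mean CPM in V5. The 3 coding members with a positive log2 ratio are the 3 that overlap no counted gene, a property read from the annotation after their values were known.

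**Figure D4:**
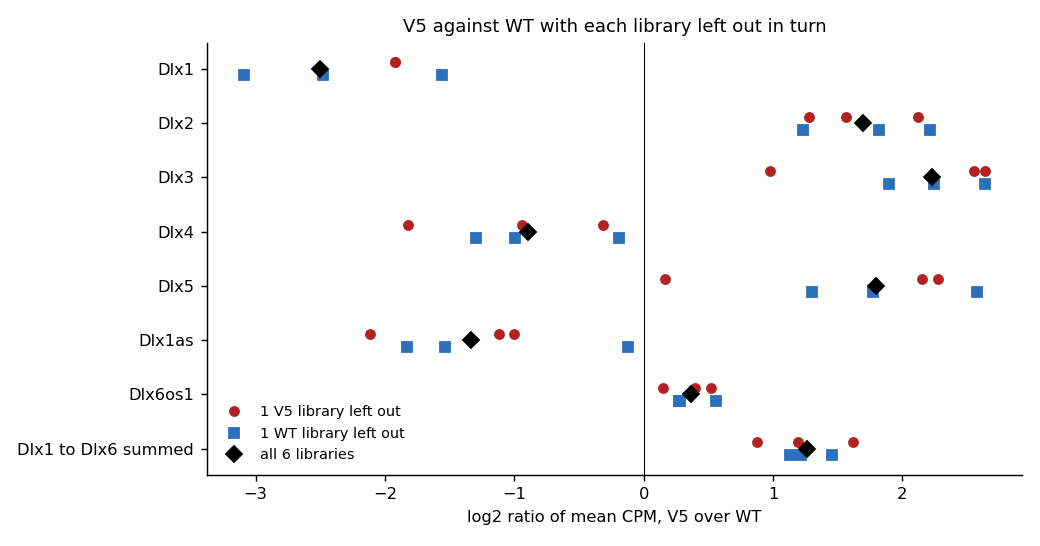
Log2 ratio of mean CPM, V5 over WT, for each member with counts and for Dlx1 to Dlx6 summed; black diamonds use all 6 libraries, red circles leave out 1 V5 library and blue squares 1 WT library. No point crosses 0, but Dlx5 lies at 0.16 without V5 1, Dlx3 at 0.98 without V5 2 and Dlx1as lies at -0.12 without WT 2; Dlx1 has no point without V5 3, as V5 would have 0 counts.

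Per kb of span outside other genes, the order of the members differed between ChIP and input. In V5, Dlx5 had 3.33 ± 3.92 and Dlx2 3.14 ± 1.92 CPM per kb (SD, n = 3), more than 98.6% and 98.4% of 21205 genes with at least 1000 such bases, where the median was 0.840. Without V5 1, Dlx5 had 1.08 CPM per kb, more than 71.5% of genes, and Dlx2 2.86, more than 98.0%. Without V5 2, Dlx3 had 0.592 CPM per kb, more than 29.0% of genes. Dlx3 followed at 1.41 ± 1.43, Dlx6os1 at 0.920 ± 0.235, Dlx4 at 0.510 ± 0.496, Dlx1as at 0.466 ± 0.341 and Dlx1 at 0.0803 ± 0.139 CPM per kb. Neighbours in this order differed by less than the larger of their SDs, except Dlx1as and Dlx1. In WT the members ran from Dlx1as at 1.17 ± 1.19 through Dlx2 at 0.969 ± 0.673, Dlx5 at 0.961 ± 0.792 and Dlx4 at 0.950 ± 0.679 to Dlx6os1 at 0.715 ± 0.155, Dlx1 at 0.456 ± 0.448 and Dlx3 at 0.301 ± 0.152 CPM per kb, and there all neighbours differed by less than the larger SD. In the input Dlx2 led with 1.63 CPM per kb, more than 90.9% of genes, followed by Dlx1 with 1.25, while Dlx1as had the least at 0.147. These values use the bases that the RefSeq spans leave free, 2525 bp for Dlx1, also for Dlx4 and Dlx6os1, whose deposited lengths are shorter than their spans. Over the 1193 bp that fit its deposited length Dlx1 had 0.170 CPM per kb in V5, 0.966 in WT and 2.64 in the input. On that length Dlx1 and not Dlx2 led in the input, Dlx1 stood beside Dlx2 in WT, and in V5 it differed from Dlx1as by less than the SD of Dlx1as.

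Against the input, log2 ratios of group mean to input were taken after adding 0.5 counts to each library, with no test, since there is a single input. Dlx5 stood at 1.92 in V5 and 0.19 in WT, Dlx2 at 0.97 and -0.65, and Dlx3 at 0.71 and -1.33. Dlx1as was above the input in both groups, at 1.63 in V5 and 2.78 in WT, and Dlx1 below it in both, at -2.44 and -1.16. Dlx4 was at -0.13 in V5 and 0.64 in WT, and Dlx6os1 at 0.39 and 0.03. Over all 22453 genes with at least 10 counts in the 7 libraries the medians were 0.09 in V5 and 0.05 in WT. V5 was more than 2-fold above the input in 15.7% of those genes, and in Dlx5 and Dlx1as of the 7 members with reads, and more than 2-fold below in 11.0% and in Dlx1. WT was above in 13.7% and in Dlx1as, and below in 9.50% and in Dlx1 and Dlx3. These memberships depend on the counts added: with 2 in place of 0.5, Dlx2 passed 2-fold above the input in V5 at 1.01, Dlx1 and Dlx3 were no longer 2-fold below it in WT at -0.61 and -0.86, Dlx1 stayed 2-fold below it in V5 at -1.04, and Dlx4 was at 0.20 in V5. The SD between the log2 ratios of single V5 libraries was 1.75 for Dlx5, whose values were 3.14, 0.77 and -0.28 in V5 1 to V5 3. The 1.92 given above is the ratio of its group mean and not the mean of these values, so the SD cannot be set against it. For Dlx2 and Dlx3 the SD between single V5 libraries was 1.20 and 1.30, and it cannot be set against the ratios of their group means either. Both groups share the input, so their positions relative to it are not independent.

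**Figure D5:**
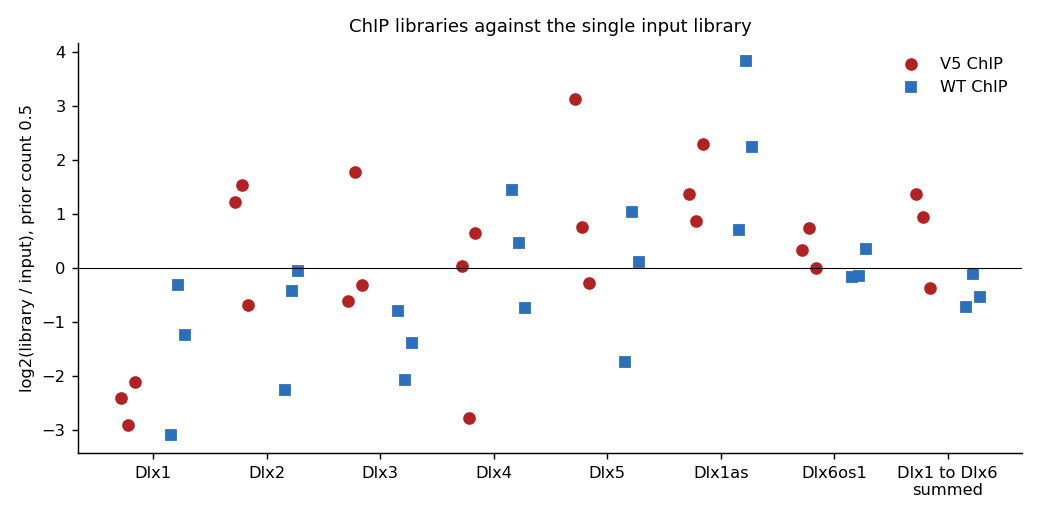
Log2 ratio of each ChIP library to the single input library, prior count 0.5, for the members with counts and for Dlx1 to Dlx6 summed; red circles are V5 libraries and blue squares WT libraries. All 6 ChIP libraries lie below 0 for Dlx1 and above 0 for Dlx1as, and for the summed genes V5 1 and V5 2 lie above 0 while V5 3 and the 3 WT libraries lie below.

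The 3 nearest counted genes on either side of each Dlx pair show what the same chromosomal neighbourhoods gave. Of these 18 genes 16 were tested, 0 passed with edgeR, and 1 had an unadjusted p under 0.05, as had 4.12% of all genes tested. That was Itga3, an integrin subunit gene 43.3 kb from Dlx3, whose counts were 30, 87 and 96 in V5 and 37, 27 and 62 in WT (log2 fold change 0.97, SE 0.46, adjusted p = 0.980). Like Dlx3, it had its highest CPM in V5 2 and non-overlapping groups. Of the 18 neighbours 1 lay wholly above and 1 wholly below, beside 4.37% and 5.02% of all genes with at least 10 ChIP counts. Hat1, a histone acetyltransferase gene 86.5 kb from Dlx1, was the 1 neighbour whose V5 libraries lay wholly below the WT libraries, with 27, 17 and 190 counts in V5 and 79, 85 and 181 in WT (log2 fold change -0.84, SE 0.41, adjusted p = 0.980). Metap1d, a methionine aminopeptidase gene 2.92 kb from Dlx1, was at 121, 23 and 210 counts in V5, against 126, 78 and 111 in WT (log2 fold change 0.26, SE 0.58). Kat7, which encodes another acetyltransferase of the MYST family that MOZ belongs to and lies beyond Dlx4, held 27, 24 and 124 counts in V5, against 73, 55 and 82 in WT (log2 fold change -0.46, SE 0.43). Tac4, a tachykinin gene below the filter, held 17, 0 and 31 counts in V5, against 5, 1 and 11 in WT, and the V5 over WT ratio of mean CPM among the 18 genes ran from 0.538 in Hat1 to 3.38 in Tac4. By Dlx5 and Dlx6, the succinate dehydrogenase assembly gene Sdhaf3 had 88.4 ± 26.8 CPM in V5 and 76.8 ± 1.27 in WT (SD, n = 3 each), and 190 CPM in the input.

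Genes that act upstream and downstream of the Dlx genes did not pass the test either. Of 16 listed upstream signals of the arches, 14 were tested, 0 passed in either direction with edgeR and 7 log2 fold changes were positive; their median was 0.04, beside 0.02 over all genes. Ednra, the endothelin receptor that acts upstream of Dlx5 and Dlx6, averaged 51.0 ± 2.76 CPM in V5 and 77.7 ± 12.4 in WT (SD, n = 3 each; log2 fold change -0.58, SE 0.32), and Ece1, which activates endothelin, had 144 ± 46.5 CPM in V5 and 99.9 ± 22.7 in WT (0.55, SE 0.27). Fgfr1, a fibroblast growth factor receptor, led by p at 0.97 (SE 0.41), and Notch2 stood at 0.43 (SE 0.24). Of 22 genes that depend on Dlx function in jaw or bone, 8 were tested, 0 passed and 5 were positive, with a median of 0.05. Plagl1, a zinc finger gene, showed counts of 49, 70 and 109 in V5 and 14, 44 and 79 in WT (1.05, SE 0.47). In CPM its V5 libraries lay wholly above the WT libraries, and those of Ednra wholly below. Among all genes with at least 10 ChIP counts 4.37% lay wholly above and 5.02% wholly below. Alx4, a homeobox gene of facial mesenchyme, showed 11, 22 and 118 counts in V5 and 56, 73 and 67 in WT (-0.80, SE 0.48), while Dkk2 stood at 0.12. Of 12 Dlx-dependent genes of forebrain interneurons, a tissue not sampled, 7 were tested, 0 passed and 4 were positive, with a median of 0.06 and Sp8 leading at 1.38 (SE 0.75), then Lhx8 at 0.90 and Gad1 at -0.49. Fitted with no filter on low counts, the forebrain list had 8 of 12 positive values with a median of 0.72, the arch list 17 of 22 with 0.16 and the upstream signals 8 of 16 with 0.03, beside 0.00 over all genes. With DESeq2 the medians were 0.77, 0.17 and 0.06. With 1 library left out in edgeR, the forebrain median ran from -0.22 without V5 2 to 0.89 without WT 1, over 8 genes each. With the replicate block it was -0.05 over 7 genes, so its sign was not stable. At an unadjusted p under 0.05 the upstream, arch and forebrain lists held 1 of 14, 1 of 8 and 0 of 7 genes with edgeR, beside 4.12% of all genes. They held 1 of 16, 1 of 22 and 0 of 12 with DESeq2, beside 4.29%, and none with limma-voom, beside 2.42%. With no filter in edgeR they held 2 of 16, 1 of 22 and 0 of 12, beside 5.50%. Without V5 3 they held 3 of 15, 3 of 10 and 3 of 9, beside 1610 of all 15530 genes tested in that fit. With any other ChIP library left out each list held 0 or 1.

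Marker genes cannot check the labelled tissue here, since ChIP reads do not measure expression. The 8 markers of arch mesenchyme summed to between 186 and 271 CPM in V5, 191 and 208 CPM in WT and 165 CPM in the input, and none was at 0. Of 6 tested 0 passed and 4 were positive (median 0.24, 0 at an unadjusted p under 0.05), with Prrx1 at 0.52 (SE 0.31), Alx1 at -0.50, Tfap2a at 0.47 and Pdgfra at 0.24. The V5 libraries of Alx1 lay wholly below the WT libraries in CPM. The 17 markers of endothelium, blood, epithelium, muscle and nerve summed to 309 to 415 CPM in V5, 249 to 358 in WT and 392 in the input, with 1 at 0. Of 10 tested 0 passed and 7 were positive (median 0.17, 1 at an unadjusted p under 0.05, and 2 of 16 in DESeq2), with Tie1 at 2.13 (SE 0.71, adjusted p = 0.980), Epcam at 1.25, Tal1 at 1.08 and Tubb3 at -0.85. The V5 libraries of Tie1 lay wholly above the WT libraries in CPM. Over all genes with at least 10 ChIP counts, 4.37% lay wholly above and 5.02% wholly below. An unadjusted p under 0.05 was found for 4.12% of all tested genes in edgeR and 4.29% in DESeq2.

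Among genes past the filter, those whose profile over the 6 ChIP libraries lay nearest to that of Dlx1 to Dlx6 summed included Blvrb, Pnp, Alox5ap and a gene whose identifier matched no symbol. Their root mean square differences from the centred log2(CPM + 1) profile of the Dlx genes were 0.118 to 0.164, beside a median of 0.936 over all tested genes. Blvrb, a biliverdin reductase gene of 18004 bp on chromosome 7, had 61, 54 and 61 counts in V5, 21, 36 and 51 in WT and 99 in the input. Pnp, a purine nucleoside phosphorylase gene on chromosome 14, had 23, 22 and 26 counts in V5, 7, 9 and 16 in WT and 28 in the input. Each of these profiles is near by construction, so they are given as a description of 6 libraries.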

How the data were processed

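Anti-V5 ChIP and input libraries of pharyngeal arches were analysed as raw read counts per gene, deposited by the authors with a gene identifier and a length; per the submitters' processing notes bcl2fastq, featureCounts and MACS and build mm10 were used, while roles, versions, duplicate handling and counting options are not stated in the labels or files. Groups follow the titles in the labels. Of 27179 identifiers 25275 matched a RefSeq GRCm38.p6 symbol, and no column lacked a sample. Repeated copies of the counts in the files of single samples were equal and not used, and peaks were not analysed here. The closest 2 libraries (V5 3 and WT 3) had a chi-square per degree of freedom of 4.03 over genes, so each library counts as 1 replicate.

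CPM were computed here from these counts. All genes were fitted by edgeR 4.0.16 under R 4.3.3 (genes kept by filterByExpr at minimum count 10, TMM, robust glmQLFit and glmQLFTest, Benjamini-Hochberg, threshold 0.05), checked on simulated data; SEs derive from the F statistic, and the input was left out. For single members, the sum of Dlx1 to Dlx6 and the genomic pairs, mean CPM was tested by exact permutation, two-sided. Intervals cover counting error only. Alternatives were DESeq2 1.42.0, limma-voom 3.58.1, no filter, other denominators, a replicate block and leaving out each ChIP library. The members, the gene lists and the rule for named genes were chosen with earlier results of these data known. That rule names the 8 members, the 3 nearest counted genes on either side of each pair, up to 4 genes of smallest p per list, and the 5 profiles nearest to the summed Dlx genes. A few genes that this rule names are not reported here. Dlx4os and Dlx6os2 are named for their overlap, after their values were seen.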

Additional observations from a re-analysis of the deposited data

How the results depend on the processing

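No member passed the threshold under edgeR with or without a filter, DESeq2, limma-voom, the replicate block or without any single ChIP library, among the members each could fit, and no list member did. The number of genes called was 0 in edgeR as reported, 9 with no filter on low counts, 4 with limma-voom and 1 with the replicate block in edgeR; leaving out 1 library gave 0 to 2, with 2 without V5 2 and 1 without V5 3. The log2 ratio for the Dlx1 and Dlx2 locus, 0.48, turned to -0.018 without WT replicate 1 and ran from -0.018 to 1.17 over the 6 libraries left out; its groups overlap throughout, and the cause was not tested. The other V5 over WT ratios kept their sign under the other denominators and with each library left out. Dlx3 ran from 0.98 to 2.64, Dlx2 from 1.23 to 2.21, Dlx5 from 0.16 to 2.58, Dlx4 from -1.82 to -0.19, Dlx1as from -2.12 to -0.12 and the 6 coding genes together from 0.88 to 1.62. Dlx1 gave no value without V5 3. Its log2 ratio to the input in V5 was -1.04 with a prior count of 2, against -2.44 with 0.5; that of Dlx4 was 0.20 against -0.13. Against the input, dividing by length changes no ratio of a gene to itself, so that alternative was not run. Added after the data were seen, Dlx1 over 1193 bp had 0.966 CPM per kb in WT and 2.64 in the input, where 2525 bp gave 0.456 in WT and 1.25 in the input; Dlx2, Dlx3 and Dlx5 alone gave 1.85, and the 6 genes over Dlx6os1 reads gave 0.83.

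Correlations between libraries did not settle whether replicate numbers pair them. Deviations of same-numbered V5 and WT libraries correlated at 0.0138, 0.00562 and 0.0602 across genes, and those of other numbers at -0.0468 to 0.0248. V5 1 and V5 2 correlated best with another number, V5 2 by a small margin (0.00616 against 0.00562), and V5 3 correlated best with WT 3. With the replicate block edgeR gave Dlx6os1 a log2 fold change of 0.36 (adjusted p = 1.00), and an exact sign-flip test gave Dlx3 a p of 0.25, the smallest 3 pairs allow. The coding genes had at most 27 counts in a ChIP library. Differences inside the counting intervals were not detectable, but counting error is not the whole spread: V5 1 and V5 3 differed in Dlx5 beyond their intervals, which ran from 22.1 CPM up in V5 1 and to 5.6 CPM in V5 3.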
